A study of Mus musculus with 12 samples.

Results

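The genes described here encode the heat shock proteins and their DNAJ co-chaperones. Members were taken by symbol, as genes whose name begins with Hspa, Hspb and a digit, Hspd, Hspe, Hsph, Hsp90 or Dnaj, leaving out 5 genes of the endoplasmic reticulum stress response (Hspa5, Hsp90b1, Dnajb9, Dnajb11 and Dnajc3). This rule gave 67 members among the 22243 genes listed, in 92 transcripts. Bulk mRNA was sequenced from bone marrow-derived macrophages (BM-Mɸs), which are cells grown from marrow in M-CSF, after M1 activation, in which a pretreatment of 16 h in 100 U/mL IFNγ came before 6 h with 100 ng/mL LPS. The 6 ErbB4myeKO libraries came from LysMCre/ErbB4-floxxed mice, in which Cre driven by the lysozyme M locus removes the floxed ErbB4 receptor gene in myeloid cells. The 6 ErbB4FF libraries came from littermates with the floxed allele and without LysMCre, and all mice were on the C57Bl/6 background. Genotypes were taken from the labels, and Lyz2 differed between the genotypes in another direction in litter 6 than in the other litters, as given below. Each of 6 litters gave 1 mouse of each genotype, and the litter number is also the batch letter on the labels, so that litter and batch cannot be told apart. Age and sex are not on the labels. The authors used both sexes and adjusted their own tests for sex as well as litter. Sex could not be adjusted for here, so that genotype and a difference of sex within a pair cannot be told apart. The controls do not carry LysMCre, so the effect of Cre and that of the loss of ErbB4 cannot be told apart, and no library of unstimulated cells is part of the comparison.

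Heat shock proteins hold unfolded or aggregating proteins and help them fold. HSP70 proteins bind short hydrophobic stretches in a cycle of ATP hydrolysis, DNAJ (J) proteins deliver the clients and trigger that hydrolysis, HSP110 proteins exchange the nucleotide, and HSP90 completes the folding of kinases and receptors. Small heat shock proteins hold clients without ATP, and the mitochondrial chaperonin HSP60 with its lid HSP10 folds proteins inside mitochondria. When unfolded proteins build up, the transcription factor HSF1 binds heat shock elements, which are arrays of inverted GAA units, and raises the inducible members. Macrophages make many of these proteins at rest, and stress of many kinds raises the inducible ones.

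Heat shock elements were looked for in RefSeq promoters (GRCm38.p6, 250 bases before to 50 after a start), as the letters GAANNTTC or TTCNNGAA for an array of 2 units. An array of 3 units adds NNGAA to the end of the first of these or NNTTC to the end of the second. These letters cover both strands, and every 3-unit match also holds 2-unit matches. A promoter was listed for 53 members, of which 16 (30.2%) had the 2-unit form and 4 (7.55%: Dnajb6, Hspd1, Hspe1 and Hsph1) the 3-unit form. Of all 27025 genes with a promoter, 4587 (17%) and 179 (0.662%) did. Of 13 members listed as heat-inducible, 10 had a promoter in the table and 8 of these held the 2-unit form. That list was written from textbook targets of HSF1, so these shares describe the list. The windows below come from the members whose levels differed most between litters 3 and 5, Hspa1a, Hspa1b and Hspb1, and from the start shared by Hspe1 and Hspd1, with the matched units in capitals. They lie at chr17:34972227-34972286 (minus strand), chr17:34959309-34959368 (minus strand), chr5:135887796-135887855 (plus strand) and chr1:55088053-55088082 (plus strand for Hspe1, minus for Hspd1).
Hspa1a: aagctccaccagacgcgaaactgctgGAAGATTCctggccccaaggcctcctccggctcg
Hspa1b: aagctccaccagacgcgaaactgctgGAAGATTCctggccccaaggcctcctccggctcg
Hspb1: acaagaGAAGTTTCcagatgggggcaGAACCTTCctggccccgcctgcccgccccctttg
Hspe1: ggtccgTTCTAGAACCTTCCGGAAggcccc
Hspd1: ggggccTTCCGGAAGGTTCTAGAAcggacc
The Hspa1a and Hspa1b windows were identical, and over the whole 300 bases their promoters shared 296 bases. The first 3 windows overlap no exon of GENCODE M21. The last lies before the start of Hspe1 and in an exon of 1 alternative Hspd1 transcript, so that 1 stretch of DNA stands before both subunits of the mitochondrial chaperonin. A match is a description of the letters and not a site shown to be bound.

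Levels were given as TPM, which are scaled to transcript length and to the total of each library, so that they compare genes within a library. As these are bulk samples, fewer cells of a type and less RNA per cell cannot be told apart. Of the 67 members, 48 had a mean of at least 1 TPM over 12 libraries and were tested, 14 were above 0 and under that level, and 5 (Dnajc5b, Dnajb7, Dnajb8, Hspb3 and Dnajc5g) were listed at 0 in all libraries. The members together held between 2704 and 3969 TPM in a library, which is 0.417% to 0.673% of the TPM listed. These sums came from few genes, as the 3 most abundant members held 60.8% of the summed mean TPM and the 10 most abundant 84.2%. The level of Erbb4 itself did not separate the genotypes: it was between 0.28 and 0.852 TPM in ErbB4myeKO and between 0.372 and 0.716 TPM in ErbB4FF libraries. These values are for whole transcripts, below the level for testing, and do not read the floxed part alone, so they do not check the labels. Lyz2, the gene of the lysozyme M locus that drives Cre, was lower in the ErbB4myeKO library in litters 1 to 5, with log2 ratios between -1.20 and -0.81. In litter 6 it was higher, at 7997 against 2964 TPM (log2 ratio 1.43). Whether the labels of litter 6 have a part in this was not tested. Macrophage markers (8 genes, among them Adgre1, Cd68, Csf1r and Lyz2) summed to between 7179 TPM (ErbB4FF of litter 6) and 15960 TPM over all libraries. Much of that sum was Lyz2, with a mean of 6791 TPM, so it follows the Lyz2 differences given above. The M1 genes summed to between 13030 and 36140 TPM, but single M1 genes differed greatly between libraries. Nos2 was listed at 0 in 3 libraries (the ErbB4myeKO library of litter 3 and both of litter 5) and was at 115 and 139 TPM in litter 4. Il12b ran from 405 to 8894 TPM and was lowest in litter 5. Markers of lymphocytes summed to at most 3.91 TPM and of erythroid cells to at most 0.981 TPM. Those of neutrophils summed to 41.2 to 375 TPM in ErbB4myeKO and 42.3 to 186 TPM in ErbB4FF libraries, with Retnlg at 0 and Ly6g, Mpo and Elane under 1 TPM in every library. S100a8 reached 253 TPM, S100a9 103 TPM, Ngp 18.4 TPM and Camp 10.5 TPM, and all 4 had their highest litter means in litters 5 and 6. Markers of stroma summed to 9.28 to 103 and 15.9 to 97.9 TPM, and those of dendritic cells to 46.0 to 123 and 34.0 to 94.9 TPM, with Siglech and Cd209a at 0. No gene of these lists, as no gene at all, passed an adjusted p under 0.05 for genotype in limma. At an unadjusted p under 0.05, Fcgr1 (log2 fold change -0.86) and Cxcl10 (-0.18) were lower in ErbB4myeKO in 6 of 6 litters, Il12b (1.19) and Camp (0.45) higher in 6 of 6, and Xcr1 (0.63) and Mki67 (0.42) higher in 5 of 6. Their part in the results for the members was not tested.

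The cytosolic HSP90 and constitutive HSP70 genes led the family. Hsp90ab1, the constitutive HSP90, had a lowest, median and highest level of 750, 911 and 1216 TPM in ErbB4myeKO and of 798, 839 and 1100.0 TPM in ErbB4FF libraries. Hspa8, the constitutive HSP70 that also uncoats clathrin vesicles, had 513, 699 and 854 TPM against 426, 672 and 1239 TPM. Hsp90aa1, the inducible HSP90, had 297, 345 and 443 TPM against 302, 354 and 412 TPM. The ranges of the genotypes overlapped widely for all 3. The J proteins Dnaja2, Dnajb6 and Dnaja1, which serve cytosolic HSP70, came next. Dnaja2 had a mean of 206 TPM over the 12 libraries, Dnajb6, which blocks aggregation of polyglutamine proteins, 152 TPM, and Dnaja1 108 TPM. The mitochondrial set followed, with means of 92.9 TPM for Hspe1 (HSP10), 89.5 TPM for Hspa9 (mortalin, the HSP70 of the matrix) and 64.8 TPM for Hspd1 (HSP60). The tenth by mean was Dnajc7, which binds both HSP70 and HSP90, with 52.0 TPM. The stress-inducible HSP70 genes were far lower, with means of 23.1 TPM for Hspa1b and 20.3 TPM for Hspa1a, and so were Hsph1 (HSP110, 6.66 TPM) and Hspb1 (HSP25, 5.05 TPM). In all, 6 members had a mean of at least 100 TPM, 22 were between 10 and 100 and 20 between 1 and 10.

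The 19 members below the level for testing included most of the small heat shock genes. Of 8 such genes, only Hspb1 and Hspb11 reached a mean of 1 TPM, and Hspb11, despite its name, encodes a subunit of the intraflagellar transport machinery of cilia. Hspb6, Hspb8, Hspb2 and Hspb7, which are best known from muscle, had means of 0.709, 0.472, 0.0831 and 0.146 TPM, and Hspb9, known from testis, 0.634 TPM. In single libraries they went higher: Hspb6 was at 3.12 and 3.14 TPM in litter 5, Hspb9 at up to 2.91 TPM and Hspb8 at up to 1.51 TPM. Dnajc6, the neuronal auxilin that works with Hspa8 on clathrin coats, had a mean of 0.00524 TPM. Dnaja4 (0.361 TPM), Dnajc15 (0.443 TPM), Dnajc28 (0.232 TPM) and Hspa12a (0.0509 TPM) were also under the level for testing, as were Dnajb13, Dnajb3, Hspa12b and Dnajc22, at 0.153 TPM or less.

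**Figure D1:**
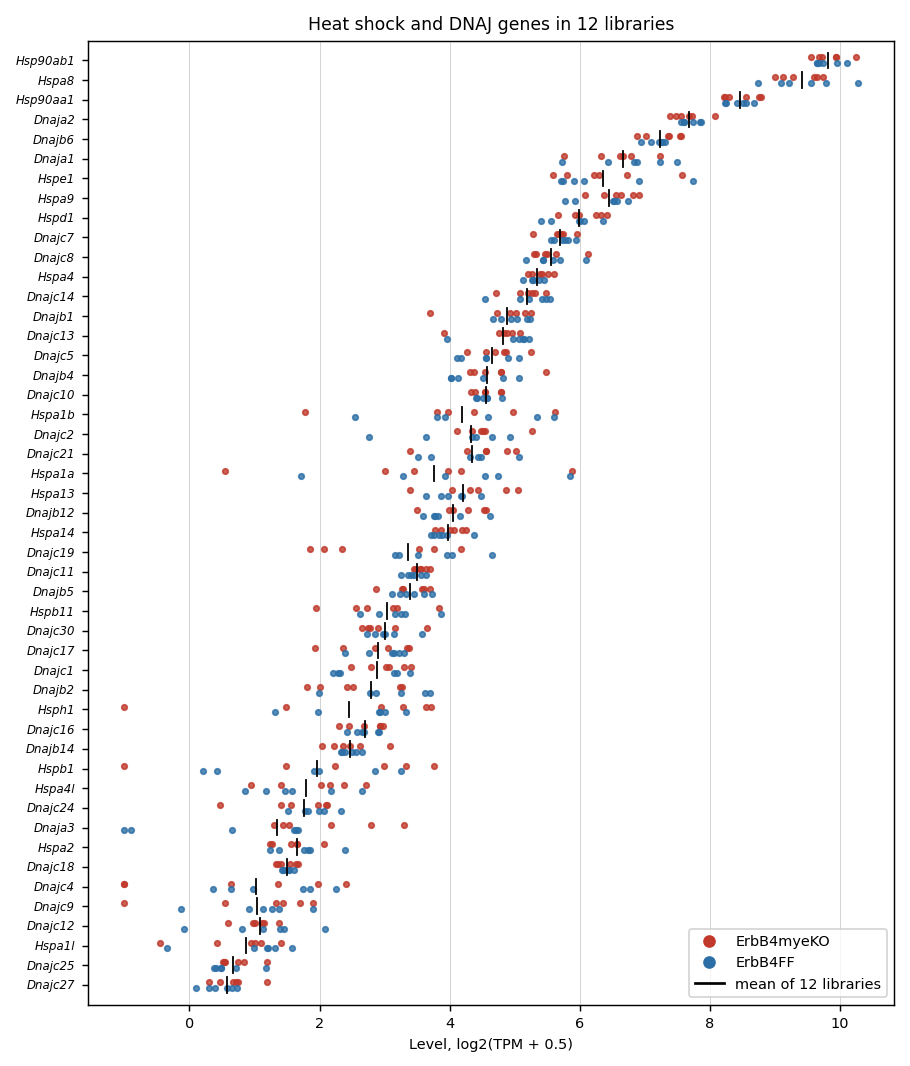
Level of each of the 48 members tested, as log2(TPM + 0.5), with 1 point for each of 6 ErbB4myeKO (red) and 6 ErbB4FF (blue) libraries and a black line at the mean of the 12. Hsp90ab1, Hspa8 and Hsp90aa1 lead, the genotypes overlap, and Hspa1a, Hspa1b, Hsph1 and Hspb1 each have libraries far to the left of their mean.

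Genotype was tested with limma on log2(TPM + 0.5), with the litter as a block, over the 8780 genes whose mean reached 1 TPM. No member passed a Benjamini-Hochberg adjusted p under 0.05, nor did any of the 8780 genes (percent called 0), and the smallest adjusted p in that limma fit was 0.603. At an unadjusted p under 0.05 there were 5 of 48 members (10.4%), against 8.21% of all genes. Only Dnaja3 was on the higher side (2.08%, against 3.83% of all genes) and Hspa1a, Dnaja1, Dnajc19 and Dnajb2 were on the lower side (8.33%, against 4.38%). By the exact permutation test, which swaps the genotypes of littermates in all 64 ways and cannot go below p = 0.0312, 1 member was under 0.05. That takes the same sign in all 6 litters, so it is the count of 1 sign given below (2.08%, against 4.82% of all genes) and not a separate result. The median log2 fold change of the members was -0.00085 and that of all genes tested -0.00068, with 24 members above 0 (50% against 49.8%). One member, Dnajc13, had the same sign of its ratio in all 6 litters (2.08%, against 4.82% of all genes in either direction and 2.31% in the lower one). The shares thus sat near or below those of all genes, except that of the lower members at an unadjusted p under 0.05. The limma 95% interval of the log2 fold change lay within ±1 for 43 of the 48 members and within ±0.5 for 23, which bounds the differences these 6 pairs could have hidden.

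**Figure D2:**
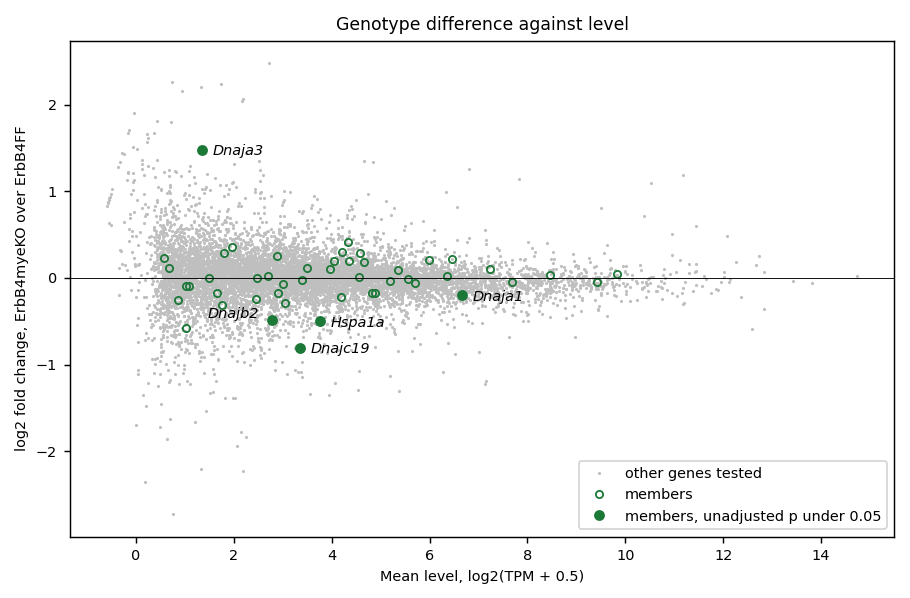
Log2 fold change of ErbB4myeKO over ErbB4FF from limma (vertical) against the mean of log2(TPM + 0.5) (horizontal), for all genes tested (grey) and the 48 members (green). The 5 members with an unadjusted p under 0.05 are filled and named, and the members lie around 0 as the other genes do.

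Among the stress-inducible HSP70 genes, Hspa1a had the smallest p of any member. In litters 1 to 6 it was at 7.54, 15.3, 0.963, 10.4, 58.8 and 17.6 TPM in ErbB4myeKO and at 9.21, 22.8, 2.77, 14.7, 57.2 and 26.2 TPM in ErbB4FF libraries. The ErbB4myeKO library was the lower of the pair in 5 litters, and the exception was litter 5, where both were highest. Ranges of the genotypes overlapped, because litters differed far more than littermates. Within litters, the log2 ratio averaged -0.50 ± 0.40 (SD, n = 6 litters), with a limma 95% interval from -0.84 to -0.16, p = 0.0103 before and 0.603 after adjustment, and an exact permutation p of 0.0625. Without the litter block the limma p was 0.554. Hspa1b, its neighbour on chromosome 17, stood at 15.2, 20.4, 2.91, 13.5, 48.6 and 31.04 TPM in ErbB4myeKO and 13.5, 23.6, 5.33, 14.7, 48.2 and 40.0 TPM in ErbB4FF libraries. It was lower in 4 of 6 litters, with a log2 fold change of -0.21 (95% interval -0.51 to 0.08, limma adjusted p = 0.642), which was -0.10 without litter 3. The genes share 63.8% of the 31-base words of the Hspa1a transcript, and 65.4% of those words occur in some other gene, so that reads can be split between them. With their TPM added, in a limma fit chosen after the data were seen, the log2 fold change was -0.34, with an adjusted p of 0.603.

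The other HSP70 genes were on both sides of 0. Hspa8 had a log2 fold change of -0.045 (95% interval -0.29 to 0.20), and its sign turned without litter 2. Its transcript shares 77.2% of its 31-base words with other genes, 74.3% with the processed copy Gm15459. Hspa9 had a log2 fold change of 0.22 (-0.036 to 0.48), with 67.2, 96.6 and 120 TPM as lowest, median and highest in ErbB4myeKO and 54.4, 90.9 and 107 TPM in ErbB4FF libraries. Without litter 2 its log2 fold change was 0.12. Hspa13, a microsomal ATPase with an HSP70-type domain, had a log2 fold change of 0.30 (-0.031 to 0.62), which was 0.18 without litter 3, and was higher in 5 of 6 litters. Of the 8 HSP70 genes tested, 3 were above and 5 below 0, with a median of -0.11. That median was between -0.16 (without litter 1) and -0.0094 (without litter 2) with 1 litter left out, and turned to 0.032 over the 6 genes of at least 5 TPM. The HSP110 genes had a median of 0.096 over 3 members, which was 0.052 without litter 2 and 0.18 without litter 3. Of these members, Hspa4l was at 0.29 (-0.12 to 0.70, and 0.16 without litter 2) and Hsph1 at -0.24 (-1.30 to 0.82). Hsph1 was at 0.000028 TPM in the ErbB4myeKO library of litter 3 and between 2.28 and 12.6 TPM in the other ErbB4myeKO libraries, and its sign turned without litter 1 or without litter 3.

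The HSP90 genes had narrow intervals around 0. Hsp90ab1 had a log2 fold change of 0.050 with a limma 95% interval from -0.083 to 0.18, and Hsp90aa1 one of 0.031 with an interval from -0.17 to 0.23. With 1 litter left out, the value of Hsp90ab1 was between 0.020 (without litter 6) and 0.078 (without litter 3). For Hsp90aa1, 70.8% of the 31-base words also occur in other genes, most of them in the copy Gm12346, and for Hsp90ab1 16.6%. Of the small heat shock genes, Hspb1 was too variable to place: it was at 9.54, 4.24, 0, 2.29, 7.47 and 13.1 TPM in ErbB4myeKO and at 8.99, 0.659, 0.841, 3.46, 6.76 and 3.25 TPM in ErbB4FF libraries of litters 1 to 6. Its log2 fold change was 0.36 (-0.71 to 1.43), between 0.029 (without litter 2) and 0.72 (without litter 3) with 1 litter left out, and 61.7% of its 31-base words occur in the copy Hsp25-ps1. Hspb11 was at -0.29 (-0.63 to 0.04) over its transcripts together and at 0.73 for its most abundant transcript alone, because the quantification gave nearly all its TPM to 1 transcript in some libraries and to the other in the rest.

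Class A J proteins share a glycine-rich stretch and a zinc finger with their bacterial relative, class B proteins share the former without the latter, and most of both work with cytosolic HSP70. Dnaja1 was at 79.7, 110, 53.6, 98.1, 149 and 101 TPM in ErbB4myeKO and at 85.9, 151, 52.2, 113, 181 and 117 TPM in ErbB4FF libraries of litters 1 to 6. It was lower in the ErbB4myeKO littermate in 5 litters and higher by little in litter 3, where both libraries were the lowest of the 12. Within litters, the log2 ratio averaged -0.20 ± 0.16 (SD, n = 6 litters), with a limma p of 0.025 before and 0.603 after adjustment and an exact permutation p of 0.0625. Dnaja2 had a log2 fold change of -0.050 (-0.24 to 0.14), which was -0.13 without litter 3 and -0.018 without litter 5. In class B, Dnajb1 (HSP40), the main partner of inducible HSP70, was at -0.18 (-0.56 to 0.21), and this value rested on litter 3, without which it was 0.0033. Dnajb6 was at 0.11 (-0.12 to 0.34), and Dnajb4 at 0.29 (-0.023 to 0.59), higher in 4 of 6 litters. Dnajb2, a J protein with ubiquitin-binding motifs, had 3.02, 5.05 and 9.13 TPM as lowest, median and highest in ErbB4myeKO and 3.47, 7.90 and 12.4 TPM in ErbB4FF libraries. Its log2 fold change was -0.49 (-0.93 to -0.040, limma adjusted p = 0.603), and -0.40 for its most abundant transcript alone, where the unadjusted p was no longer under 0.05. The median was -0.050 over 3 class A and 0.0022 over 7 class B members. With 1 litter left out, that of class A was between -0.13 (without litter 3) and -0.018 (without litter 5). That of class B was between 0.0033 and 0.074 (without litter 5).

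The mitochondrial genes had a median log2 fold change of 0.12, with 5 of 7 above 0, and they held the members farthest from 0 on either side. Dnaja3 (Tid1), a J protein of the matrix, was at 6.4, 4.04, 9.34, 1.95, 2.39 and 2.22 TPM in ErbB4myeKO and at 2.56, 0.000626, 0.037, 1.07, 2.69 and 2.6 TPM in ErbB4FF libraries of litters 1 to 6. It was the higher in litters 1 to 4 and the lower by little in litters 5 and 6. Within litters, the log2 ratio averaged 1.48 ± 1.82 (SD, n = 6 litters), with a limma 95% interval from 0.04 to 2.91, p = 0.0448 before and 0.603 after adjustment, and an exact permutation p of 0.125. The listed transcript shares 99.0% of its 31-base words with other transcripts of Dnaja3, and the geometric mean from the authors' log counts was 23.5, in which the libraries near 0 weigh heavily. Its value was 0.93 without litter 3 and 1.14 without litter 2. Dnajc19, a J protein of the inner membrane import motor, was at 13.1, 3.1, 3.68, 4.6, 17.5 and 11.1 TPM in ErbB4myeKO and at 8.88, 8.4, 10.97, 15.9, 24.6 and 15.1 TPM in ErbB4FF libraries. It was lower in 5 litters and higher in litter 1. Within litters, the log2 ratio averaged -0.80 ± 0.84 (SD, n = 6 litters; limma p = 0.0244 before and 0.603 after adjustment, exact permutation p = 0.125). Of its 31-base words 37.0% occur in the pseudogene Dnajc19-ps, and the geometric mean of its normalized counts was 29.2.

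Of the chaperonin subunits, Hspd1 had a log2 fold change of 0.20 (-0.022 to 0.43), higher in 4 of 6 litters, and over the 6 fits without 1 litter it was between 0.13 (without litter 3) and 0.26 (without litter 1, where the unadjusted limma p was under 0.05). Hspe1 had one of 0.022 (-0.18 to 0.22). Hspe1 was at 189 and 213 TPM in the ErbB4myeKO and ErbB4FF libraries of litter 5 and between 47.9 and 119 TPM in the other 10, while Hspd1 stayed between 41.8 and 85.5 TPM in all 12. The ratio of Hspe1 to Hspd1 was accordingly 2.37 and 2.62 in litter 5 and between 0.762 and 1.79 elsewhere.

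Class C J proteins, which have the J domain and little else in common, had a median log2 fold change of -0.017 over 21 members tested. Dnajc13, which works on endosomes with HSP70, was lower in the ErbB4myeKO library of every litter. Its levels were 26.6, 29.0, 28.0, 33.4, 14.5 and 30.7 TPM in ErbB4myeKO and 37.0, 34.9, 32.9, 34.6, 15.1 and 30.8 TPM in ErbB4FF libraries. The gap was wide in litters 1 to 3 and close to 0 in litters 4 to 6. Within litters, the log2 ratio averaged -0.18 ± 0.18 (SD, n = 6 litters), with an exact permutation p of 0.0312, the smallest that 6 pairs can give, and a limma p of 0.0614 before and 0.603 after adjustment. The vesicle J proteins had a median of 0.18 over 3 members (Dnajc5, Dnajc13 and Dnajc27). Dnajc27, with a mean of 1.01 TPM, fell below the level for testing with the most abundant transcripts alone and without litter 4, where the median over the 2 members left was -0.051 and -0.060. Dnajc2, which sits on the ribosome and helps nascent chains fold, was at 0.42 (-0.017 to 0.86) and higher in 5 of 6 litters. In litter 5 it was at 16.9 against 6.31 TPM, and without that litter the log2 fold change was 0.23. Of its 31-base words 23.7% occur in other genes. Dnajc7 was at -0.063 (-0.25 to 0.12), which was -0.0093 without litter 3 and -0.11 without litter 5. The 6 J proteins of the ribosome, splicing, histones and diphthamide had a median of -0.055, which was 0.11 without litter 3 and 0.087 over the 4 genes of at least 5 TPM, and the 8 of the endoplasmic reticulum, of which 6 were above 0, had one of 0.015.

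**Figure D3:**
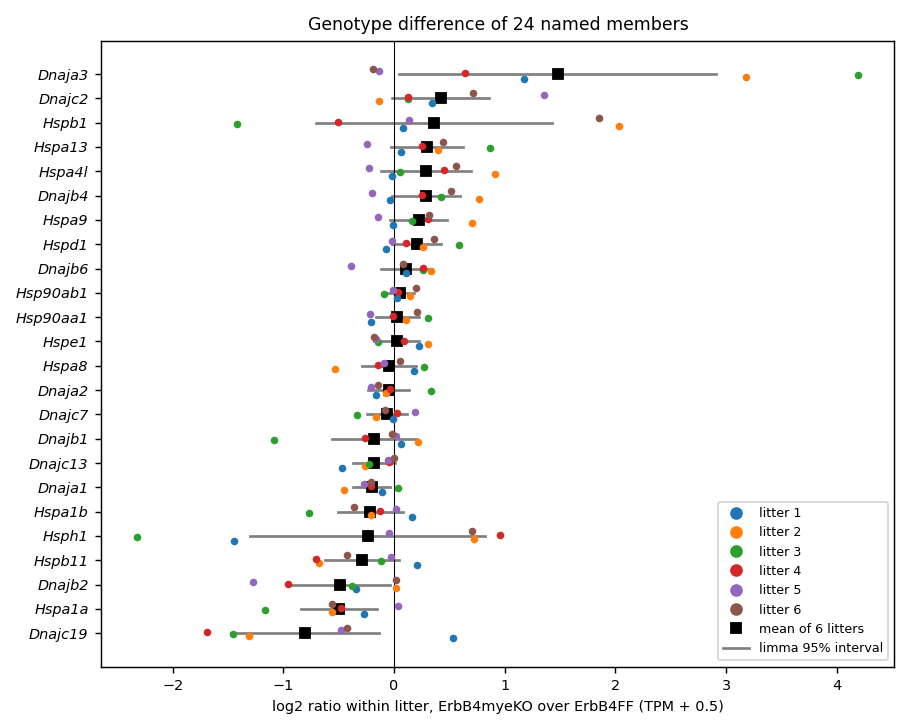
Within-litter log2 ratio of ErbB4myeKO over ErbB4FF (TPM + 0.5) for 24 named members, with 1 coloured point per litter, a black square at the mean of 6 litters and a grey bar for the limma 95% interval. The points fall on both sides of 0 except for Dnajc13, and Dnaja3, Hspb1, Hsph1 and Dnajc19 scatter most.

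The regulators and co-chaperones of the family that are not members did not pass the adjusted threshold either. Of 35 genes for heat shock factors and for partners of HSP70 and HSP90, 32 were tested, with a median log2 fold change of 0.011 and 17 above 0. Hsf1, the factor itself, had 3.18, 8.28 and 12.8 TPM as lowest, median and highest in ErbB4myeKO and 4.22, 8.73 and 12.0 TPM in ErbB4FF libraries, and a log2 fold change of -0.015 (-0.71 to 0.68). Bag1, a nucleotide exchange factor of HSP70, was at -0.24 (-0.44 to -0.039, limma adjusted p = 0.603) and was the only one of the 44 co-chaperone, TRiC and prefoldin genes tested with an unadjusted p under 0.05 (2.27%, against 8.21% of all genes in either direction and 4.38% in the lower one). It was lower in 5 of 6 litters. Hsbp1, which binds HSF1, was at -0.17 (-0.34 to 0.01), and Ahsa1, which stimulates the HSP90 ATPase, at -0.20 (-0.46 to 0.07). Ptges3 (p23), which holds HSP90 with its client, was at 0.31 (-0.09 to 0.71). Of the cytosolic chaperonin TRiC and of prefoldin, 12 genes were tested, with a median of 0.038 and none with an unadjusted p under 0.05. Their smallest p values on the higher side were those of Cct3, at 0.19 (-0.040 to 0.41), and Cct5, at 0.10 (-0.030 to 0.23).

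Most of the variation of these genes lay between litters. The share of the variance of log2 levels between litters had a median of 74.2% over the 48 members, 84.7% over the 13 heat-inducible members and 78.1% over all genes tested, where samples with no litter effect would give 45.5%. It was 98.0% for Hspe1, 97.3% for Hspa1b, 95.6% for Hspa1a and 94.4% for Dnaja1, and 17.4% for Dnaja3. Between litter 5 and litter 3, the difference of mean log2(TPM + 0.5) was 4.74 for Hspa1a, 3.45 for Hspa1b, 3.22 for Hspb1, 3.14 for Hsph1, 1.98 for Hspe1 and 1.63 for Dnaja1. It was 0.35 for Hsp90ab1, 0.30 for Hspa8 and 0.00003 for Hsp90aa1, and it was -1.63 for Hspa4l and -0.86 for Dnajb4. Hspa1a, Hspa1b, Hspb1 and Hsph1 thus spanned a wide range between these litters, and both HSP90 genes and Hspa8 a narrower one. Markers moved between the same litters. In litters 3 and 5, the litter means were 8692 and 411 TPM for Il12b, 159 and 35.7 TPM for the macrophage gene Mertk, 6.26 and 95.9 TPM for S100a9, 1.16 and 17.4 TPM for Ngp, and 0.286 and 9.91 TPM for the stromal gene Dcn. Il1b had litter means of 12778 and 2726 TPM. Other genes of the same lists moved the other way. Their litter means in litters 3 and 5 were 2000 and 3352 TPM for Cxcl10, 494 and 606 TPM for Irf1, 42.4 and 235 TPM for Fcgr1 and 5013 and 10410 TPM for Lyz2. They were 6.72 and 4.56 TPM for Pdgfrb and 1.70 and 0.686 TPM for Mmp8. Single activation genes and markers of other cells therefore differed between these litters, in both directions, as well as heat shock genes. The part of these in the litter differences was not tested.

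Both libraries of litter 3 were the lowest of the 12 for 6 of the 13 heat-inducible members (46.2%: Hspa1a, Hspa1b, Hspa8, Hsph1, Hsp90ab1 and Dnaja1), against 9.87% of all genes tested and 7 of the 48 members (14.6%). They were also the lowest for 8 of 44 co-chaperone, TRiC and prefoldin genes (18.2%), among them Ahsa1. Hspa8 and Hsp90ab1, on the heat-inducible list, are called constitutive above. Hspa1a and Hspa1b share much of their sequence, so they are not independent counts, here or for litter 5. Hsp90ab1 counts by little, at 798 TPM in the ErbB4FF library of litter 3 against 805 TPM in that of litter 1. The list was chosen with earlier results of these data known, so the share of 46.2% describes the list. Not all inducible genes were low in litter 3. Both of its libraries were the highest for Hspa4l and Dnajb4. Among the other members, they were so for Dnajc10 (3 of 48 in all, 6.25%, against 8.22% of all genes). These libraries also had the fewest genes above 0, 10214 and 10910 against 11645 to 12985 in the other 10, and the part of this in the result was not tested.

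Both libraries of litter 5 were the highest for 10 of the 48 members (20.8%, against 20.2% of all genes), for 4 of 13 heat-inducible members (30.8%: Hspa1a, Hspa1b, Hspe1 and Dnajb1) and for 19 of 44 co-chaperone, TRiC and prefoldin genes (43.2%). They were the lowest for 5 members (10.4%, against 19.9% of all genes), which were Dnajb12, Dnajc13, Dnajc14, Dnajc21 and Hspa13. Transcript length went with this litter: across all 8780 genes, Spearman's rho between length and the deviation of litter 5 from the mean of litters was -0.54, and across the 48 members it was -0.48, while the other litters gave between -0.25 and 0.40 over all genes. Genes are not independent replicates, and these values share libraries and scaling. The 10 members highest in litter 5 had a median length of 1531 bases and the 5 lowest one of 3070 bases, and the median was 2586 bases over all 48. Principal transcripts held 71.4% and 74.7% of the TPM in litter 5 and 59.0% to 64.9% in the other libraries. The part of length in the levels of short members such as Hspe1 and Dnajc19 was not tested. Hspa1a and Hspa1b, both highest in litter 5, have transcripts of 2967 and 2803 bases.

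**Figure D4:**
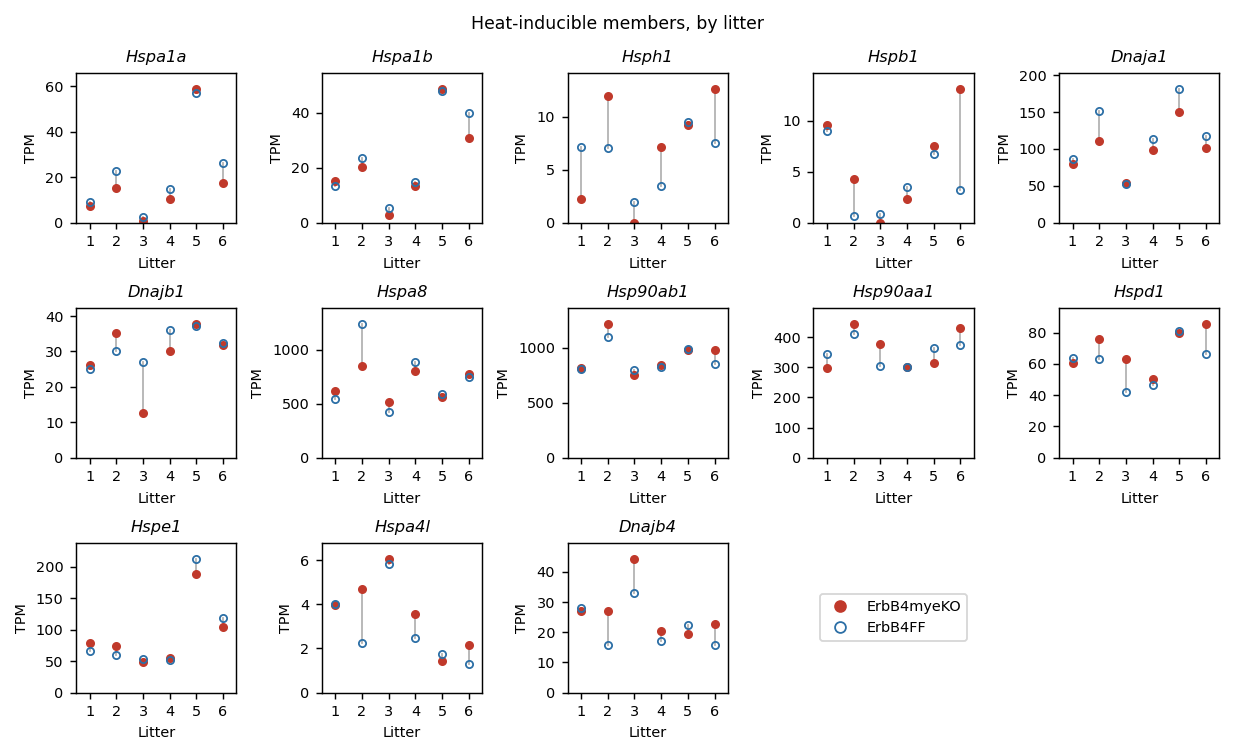
TPM of the 13 heat-inducible members (1 panel each, vertical axes from 0) in litters 1 to 6, with filled red points for ErbB4myeKO, open blue points for ErbB4FF and a grey line joining littermates. Littermates lie close together for Hspa1a, Hspa1b and Hspe1 and apart in some litters for Hspb1, Hsph1, Dnajb1 and Hspa8, with litter 3 lowest for Hspa1a, Hspa1b, Hsph1 and Dnaja1 and litter 5 highest for Hspa1a, Hspa1b and Hspe1.

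Leaving out single litters moved the counts between genotypes by different amounts. Without litter 3, 4 of 47 members had an unadjusted limma p under 0.05 (8.51%, against 9.68% of all genes). Without litter 5, 8 of 48 did (16.7%, against 9.92% of all genes), and 5 of these were higher in ErbB4myeKO (10.4%, against 4.36%), namely Dnaja3, Dnajb4, Dnajb6, Hspa13 and Hspa9. With litters 1, 2, 4 and 6 alone, a choice made after the data were seen, 9 of 47 were under 0.05 (19.1%, against 10.5%). Without litter 4, Hspa1a was the only one left (2.13%, against 5.21%). Hspa1a kept an unadjusted p under 0.05 in the limma fit without any single litter, with log2 fold changes between -0.61 and -0.37. No member passed an adjusted p under 0.05 in any of these fits.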

How the data were processed

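Bulk RNA sequencing of M1-activated BM-Mɸs covered 12 libraries, in 6 litters with 1 mouse of each genotype. Reads were single-ended, 75 bases long, from a stranded mRNA kit. The authors pseudoaligned them with kallisto and deposited transcript TPM for principal isoforms. The version and the transcriptome release are not given in the sources used here, and the labels name mm10. The authors also deposited a mean natural log of normalized counts per transcript, used here after taking the exponential, which gives a geometric mean count that libraries near 0 pull down. It was between 5.71 and 13510 over the most abundant transcripts of the members tested (median 224). Depth per library was not used. The table further holds p-values, q-values and effect sizes of the authors' own test, which were not used.

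Lines repeating a transcript (405 of 29213) were counted once, and TPM were summed per gene. Genes whose mean reached 1 TPM entered a limma model (version 3.58.1, under R 4.3.3, with lmFit, eBayes with trend and two-sided p) of log2(TPM + 0.5), in which litter was a block, and p-values were adjusted over all 8780 genes by Benjamini-Hochberg. Fold changes on that scale understate changes of low genes. Single members were also tested by the exact two-sided permutation over 64 swaps within litters. Same-numbered libraries are littermates by the design, and their deviations from gene means correlated between 0.273 and 0.774 over all genes. The fit was tried on simulated data of 8780 genes, of which 200 were changed. At an adjusted p under 0.05 it found 68% of the genes given a log2 change of 1 and 82% of those given one of 2. Of its 154 calls, 4 were false. The share found depends on how many genes change, so these rates do not give the power for the members. Shared 31-base words were counted in GENCODE M21 (GRCm38). The rest was done in Python 3.11.15 (pandas 2.3.3, matplotlib 3.10.9 and scipy 1.17.1).

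The members and lists were chosen with earlier results of these data known. The 24 named members are the heat-inducible list, the 10 with the highest mean, the 6 with the smallest p on each side and the 3 with the most variable ratio. Of the co-chaperone, TRiC and prefoldin genes, Hsf1 and the 3 with the smallest p on each side are named. Any other gene was named after its values were seen. Alternatives were no block, other pseudocounts, filters and scalings, limma without trend, the most abundant transcript alone and each litter left out.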

Additional observations from a re-analysis of the deposited data

Results flagged for a closer look

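In each of the 48 groups of 6 libraries formed by the 24 named members and the 2 genotypes, the gap of the highest and lowest library to its neighbour was divided by the range of the group, on the scale of log2(TPM + 0.5). In 4 groups this ratio was above Dixon's 95% critical value for 6 libraries, where chance alone gives about 1 in 20 groups. The levels are given in TPM. Dnajb1 was at 12.55 TPM in the ErbB4myeKO library of litter 3 and between 26.12 and 37.71 TPM in the other ErbB4myeKO libraries. Dnajc2 was at 37.95 TPM in the ErbB4myeKO library of litter 1 and between 16.88 and 22.73 TPM in the rest. Dnajc13 was low in litter 5 in both genotypes. It was at 14.53 TPM in ErbB4myeKO, with the others between 26.61 and 33.37 TPM, and at 15.13 TPM in ErbB4FF, with the others between 30.8 and 36.99 TPM.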

How the results depend on the processing

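Over 16 alternatives, 451 of 464 recomputed log2 fold changes of named genes kept their direction, and none passed an adjusted p under 0.05. The 13 that turned belonged to 7 genes. Over the 6 fits without 1 litter, the lowest and highest values were -0.11 and 0.053 for Hspa8 (above 0 without litter 2), -0.48 and 0.18 for Hsph1 (without litters 1 or 3), -0.025 and 0.081 for Hsp90aa1 (below 0 without litters 3 or 6), -0.26 and 0.0033 for Dnajb1 (without litter 3), -0.035 and 0.063 for Hspe1 (below 0 without litters 1 or 2) and -0.30 and 0.22 for Hsf1 (above 0 without litters 1 or 3). With litters 1, 2, 4 and 6 alone the values were 0.23 for Hsph1 and 0.00015 for Dnajb1, and the most abundant transcript alone gave 0.73 for Hspb11. Without litter 2, Ahsa1 was at -0.10, Cct3 at 0.11, Dnajb4 at 0.19 and Dnajb6 at 0.064 (0.21 without litter 5), and without litter 3 Ptges3 was at 0.20.

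Without the replicate block, the number of members with an unadjusted p under 0.05 on the lower side went from 4 to 0 (0.399% of all genes), and that of co-chaperone, TRiC and prefoldin genes from 1 to 0. The 1 member on the higher side was lost (0) with a pseudocount of 0.1, no filter, a mean of at least 5 TPM or limma without trend (all genes: 3.58%, 3.36%, 3.97% and 4.05%). With no filter, 5 of 62 members were lower at an unadjusted p under 0.05 (8.06%, against 2.84% of all genes), as were 2 co-chaperone genes. Rescaling by median ratios gave 2 members lower in all litters, for which no share over all genes was computed. The filter of 5 TPM gave an HSP70 median of 0.032. The most abundant transcript gave a vesicle median of -0.051 over 2 members, as Dnajc27 fell below the filter. Over the 6 fits without 1 litter, members under 0.05 were 0 to 5 higher and 1 to 4 lower and co-chaperone genes 0 to 2 higher and 0 to 3 lower (all genes: 2.23% to 4.51% and 2.46% to 5.56%), members of 1 sign were 0 to 3 higher and 1 to 4 lower (all genes: 3.2% to 5.48% and 2.88% to 5.72%), and the vesicle median -0.060 to 0.23, the former over the 2 members left above the filter without litter 4 and the latter over 3. The medians that turned sign in these 6 fits were those of the heat-inducible list (-0.0043 to 0.060), the small heat shock genes (-0.10 to 0.20), class C (-0.050 to 0.0051), the J proteins of the endoplasmic reticulum (-0.013 to 0.049) and of the ribosome and splicing (-0.13 to 0.11), all members (-0.015 to 0.015), the co-chaperones (-0.054 to 0.044) and TRiC (-0.013 to 0.068). Litters 1, 2, 4 and 6 alone gave 6 higher members of 47 (12.8%, against 4.87% of all genes), 7 higher and 8 lower of 1 sign (14.9% and 17%, against 10.1% and 11%), and 2 higher and 3 lower co-chaperone genes of 43 (all genes: 4.87% and 5.59%). The cause was not tested, except that fewer litters make 1 sign more frequent. Low members rest on few reads, and the 95% interval was within ±0.5 for 23 of 48 members.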
